A study of Mus musculus with 2 samples.

Results

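The cells described here are lung cells that carried transcripts of Cd209a, a C-type lectin of the DC-SIGN family, or of Ccl17, a chemokine that draws cells bearing CCR4. A cell was taken when the raw unique molecular identifiers (UMIs, each standing for 1 captured transcript) of Cd209a and Ccl17 came to 3 or more together, and those of 5 resident macrophage genes (Cd163, Folr2, Lyve1, Cd209f and Cd209g) stayed below 8. This gate held 128 of 4570 kept cells, of which 56 were among 2674 cells of the Tgfbr2-KO pool and 72 among 1896 cells of the control pool. The cells were chosen by measured UMI counts, so the levels of the 7 gate genes describe the choice and are not findings.

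The study asked how lung monocytes and interstitial macrophages differ when the type II TGF-beta receptor is deleted in myeloid cells. Bone marrow of LyzM-Cre Tgfbr2 fl/fl mice (Tgfbr2-KO) or of Tgfbr2 fl/fl mice without Cre (control) was transferred into irradiated IM-DTR hosts, a strain made for removing interstitial macrophages with diphtheria toxin, and all hosts received 50 ng of the toxin 10 days before sacrifice. Cre is driven from the lysozyme M locus, so deletion depends on that locus being active in a cell or its ancestors, and it was not measured per cell. The sort kept donor cells (CD45.2+, CD45.1-) that lacked Ly6G and SiglecF, had low side scatter and carried CD11b and CD64. Lung suspensions were pooled from 5 chimeric mice, in wording that leaves unclear whether that number is per genotype. Since each genotype is 1 pool and both pools went through 1 library preparation of the 10x Genomics 3' assay, no test between genotypes is possible, no p-value is given, and mouse-to-mouse spread is unknown. Age and sex of the mice are not given in the sources used here. Each interval is an exact 95% interval that covers counting error only.

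The pools were told apart by antibodies that carry a short DNA tag, shown here because the whole comparison of genotypes rests on them. In upper case throughout, the tags are:
B0303, Tgfbr2-KO: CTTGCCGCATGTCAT
B0301, control: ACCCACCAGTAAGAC
The gated cells of the Tgfbr2-KO pool had a median of 1233.5 counts of their own tag and 31 of the other, and those of the control pool had 804.5 of their own and 56.5 of the other. The assignment probability was at least 0.99 in 53 of 56 gated Tgfbr2-KO cells and in 71 of 72 gated control cells.

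Dendritic cells take up antigen, load it on MHC class II and carry it to lymph nodes, where it is shown to T cells. In the lung, conventional dendritic cells of type 2 and cells derived from monocytes share several genes, among them those for Cd209a and the galactose lectin Mgl2, and both can make the CCR4 ligands Ccl17 and Ccl22. The transcription factor IRF4 is needed for type 2 dendritic cells and binds DNA with the ETS factor PU.1 at a composite site, and STAT6, which acts below the receptors for IL-4 and IL-13, is known to drive Ccl17. TGF-beta signals through Tgfbr2 to SMAD factors and in many settings restrains inflammatory genes of myeloid cells.

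The promoters of the 2 genes that open the gate are shown from RefSeq (GRCm38.p6, 250 bases before to 50 after the annotated start), because Irf4, whose protein binds composite sites of this kind, was among the named genes both inside against outside the gate and between the pools. All 4 genes looked up (Cd209a, Ccl17, Ccl22 and Irf4) matched an entry. Searches on both strands covered the ETS-IRF composite (GGAA, any 2 bases, GAAA), the IRF repeat (GAAA, any 2 bases, GAAA) and the STAT6 site (TTC, any 4 bases, GAA), and the matches are in capitals.
Cd209a, chr8:3748935-3749234, minus strand: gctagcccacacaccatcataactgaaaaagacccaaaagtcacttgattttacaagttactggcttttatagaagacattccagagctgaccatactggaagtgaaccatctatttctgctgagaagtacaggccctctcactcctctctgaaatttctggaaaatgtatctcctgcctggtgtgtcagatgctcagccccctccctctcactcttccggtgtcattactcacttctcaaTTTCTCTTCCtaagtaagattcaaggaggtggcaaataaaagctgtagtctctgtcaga
Ccl17, chr8:94810203-94810502, plus strand: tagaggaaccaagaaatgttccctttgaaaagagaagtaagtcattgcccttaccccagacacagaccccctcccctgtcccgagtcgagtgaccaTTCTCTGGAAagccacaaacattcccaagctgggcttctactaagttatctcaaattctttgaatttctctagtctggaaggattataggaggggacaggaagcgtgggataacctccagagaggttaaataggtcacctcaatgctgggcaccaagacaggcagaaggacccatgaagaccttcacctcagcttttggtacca
The Cd209a window held 1 match to the composite, on its reverse strand, a motif found in 2.72% of 32851 promoters of this length. The Ccl17 window held 1 match to the STAT6 letters, found in 6.95% of the same promoters. The IRF repeat, present in 3.44% of promoters, had no match in any of the 4 windows, and the windows of Ccl22 and Irf4 held none of the 3 motifs. A match describes letters in a window and not a bound site.

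Gated cells made up 2.09% of the kept Tgfbr2-KO cells (1.59 to 2.71) and 3.80% of the kept control cells (2.98 to 4.76). Shares among sorted cells depend on how many cells of every other kind the sort held, and fewer cells of a kind cannot be told apart from less of the 2 transcripts in each cell. The gate also depends on depth. Gated cells held a median of 12965.5 UMIs in the Tgfbr2-KO pool and 10428.5 in the control pool, against 10231 and 7649.5 in the other cells of those pools. When every cell was thinned to 3000 UMIs, which left out 83 Tgfbr2-KO cells and 80 control cells with fewer, the gate held 32 of 2591 Tgfbr2-KO cells (1.24%, 0.846 to 1.74) and 45 of 1816 control cells (2.48%, 1.81 to 3.30). The direction was the same at both depths.

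At the edge of the gate lay 9 Tgfbr2-KO cells and 9 control cells with exactly 3 UMIs of the pair, and just outside it 23 and 13 cells with 2 UMIs. The limit on macrophage genes removed 29 further Tgfbr2-KO cells and 7 further control cells. No cell that passed the first condition had 5 to 8 UMIs of those genes, and the nearest cell outside, in the Tgfbr2-KO pool, had 9. Within the gate, 53 of 56 Tgfbr2-KO cells and 65 of 72 control cells had none. Free RNA, estimated from barcodes with 1 to 50 UMIs, could account for at most 0.841% of the UMIs in gated Tgfbr2-KO cells and 0.603% in gated control cells. In the other cells its largest possible share was 7.81% in the Tgfbr2-KO pool and 1.61% in the control pool. At those shares, 0.214 other Tgfbr2-KO cells and 0.000545 other control cells would be expected to reach the gate.

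**Figure D1:**
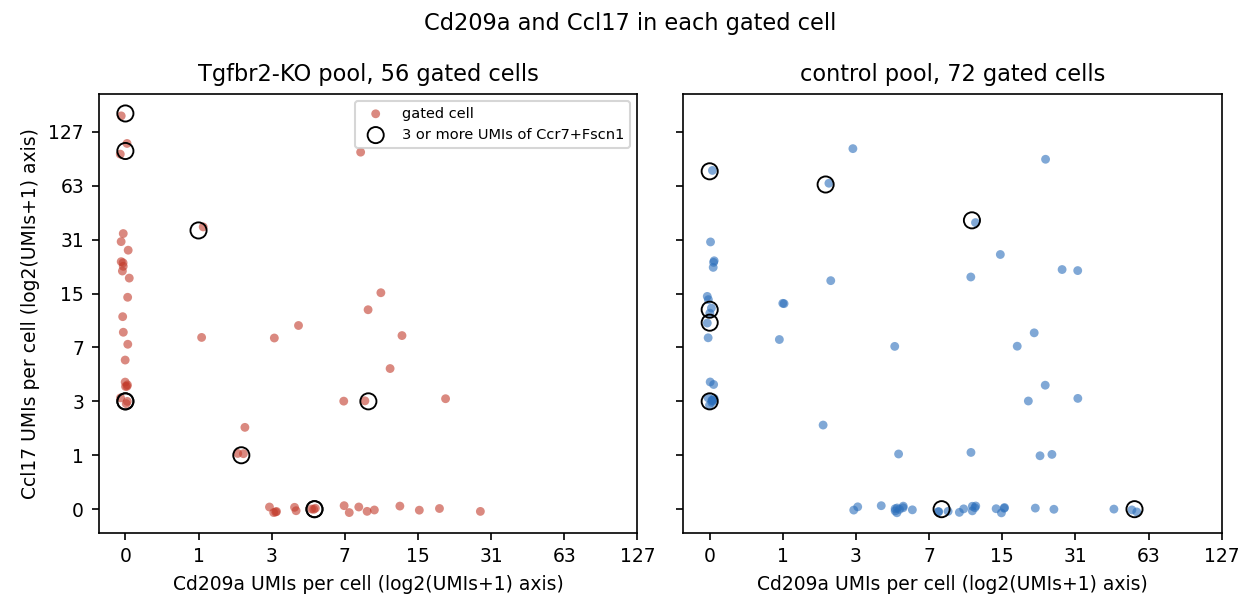
Cd209a UMIs (horizontal) and Ccl17 UMIs (vertical) of each gated cell in the Tgfbr2-KO pool (left) and the control pool (right), both on log2(UMIs + 1) axes, with a small random shift; rings mark cells with 3 or more UMIs of Ccr7 and Fscn1 together. Ccl17 reached 161 UMIs in a Tgfbr2-KO cell and 106 in a control cell, and Cd209a reached 29 in a Tgfbr2-KO cell and 59 in a control cell.

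Levels below are UPM, the summed UMIs of a gene per 1000000 UMIs of the same cells. They compare 1 gene between groups of cells, and since the assay counts 3' ends, they are not per length. Cd209a stood at 283 UPM in the gated Tgfbr2-KO cells and 887 UPM in the gated control cells, against 9.82 and 5.49 UPM in the other cells of those pools. Ccl17 stood at 946 and 916 UPM in gated Tgfbr2-KO and control cells, against 2.15 and 5.68 UPM in the other cells. Per cell, Cd209a had a median of 2.5 UMIs in the Tgfbr2-KO pool (0 to 29) and 5 in the control pool (0 to 59), and Ccl17 had 4 (0 to 161) and 3 (0 to 106). Cd209a reached 3 or more UMIs in 28 of 56 gated Tgfbr2-KO cells and 46 of 72 gated control cells, and the ranges of both genes overlapped. The gate uses both genes, so these levels describe the choice of cells and are no result between the pools.

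The label of these cells came with 3 genes that the gate does not use, and all 3 were higher inside it. The label was chosen with earlier results of these data known, and the 3 genes are among those that lead cluster 10 below. Their levels therefore describe the cells and are no independent support for the label. Ear2, an RNase of the eosinophil-associated family, had 261 UPM (228 to 296) in gated Tgfbr2-KO cells and 310 UPM (273 to 351) in gated control cells, against 52.8 and 53.8 UPM in the other cells. Ccl22, the second CCR4 ligand, had 336 and 245 UPM inside the gate in the 2 pools, against 18.6 and 30.4 UPM outside. Irf4 had 72.7 and 220 UPM inside, against 19.1 and 27.2 UPM outside. Thinned to 3000 UMIs, Ear2 was found in 28.6% of gated Tgfbr2-KO cells and 40.3% of gated control cells, against 5.80% and 4.82% of the others, and Irf4 in 16.1% and 34.7% of gated cells, against 5.80% and 6.36% of the others. Without thinning, at median depths of 12965.5 and 10428.5 UMIs inside and 10231 and 7649.5 UMIs outside, Ear2 was found in 41.1% and 65.3% of gated cells and in 9.32% and 7.51% of the others.

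Of 1928 genes with enough counts, 60 (3.11%) were at least 2-fold higher in the gated cells of both pools and 97 (5.03%) at least 2-fold lower. A gene was included with at least 100 UMIs over all cells and at least 100 UPM in 1 of the 4 groups, and the gate genes were left out. With no limit on macrophage genes the counts were 39 higher and 24 lower. The median log2 ratio of all included genes was 0.02. By the mean of the log2 ratios of the pools, the leading 12 were Ccr7, Ccl22, Dcstamp, H2-DMb2, Kynu, Il1r2, Asgr2, Hepacam2, Irf4, Flrt3, Ear2 and Itgb7.

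The 12 differ in role. Ccr7, the receptor that guides dendritic cells to lymph nodes, had 170 UPM in gated Tgfbr2-KO cells and 272 UPM in gated control cells, against 21.3 and 11.1 UPM in the other cells. Dcstamp, a transmembrane protein of fusing dendritic cells and osteoclasts, had 480 and 580 UPM inside the gate, against 67.5 and 57.3 UPM outside. H2-DMb2, a subunit of the enzyme that loads peptide on class II molecules, had 149 and 91.4 UPM inside, against 22.7 and 10.8 UPM outside. Il1r2, the decoy receptor for IL-1, had 357 and 260 UPM inside, against 77.4 and 24.5 UPM outside. Kynu, an enzyme of tryptophan breakdown, and Itgb7, an integrin chain of leukocyte homing, were also higher: Kynu by 6.13-fold in the Tgfbr2-KO pool and 8.33-fold in the control pool, and Itgb7 by 2.68-fold and 8.71-fold. Asgr2, a subunit of the asialoglycoprotein receptor, and Flrt3, a membrane protein of cell adhesion, had 43.6 and 121 UPM in gated Tgfbr2-KO cells and 119 and 262 UPM in gated control cells.

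The marker lists say how far the word dendritic can be carried. A marker is called raised where gated cells exceeded the others at least 1.5-fold in both pools and reached 10 UPM in a pool, with UMIs in both. Of 7491 genes that reached this level 6.07% were raised. Of 10 genes of conventional dendritic cells 9 were raised (Flt3, Zbtb46, Dpp4, Btla, Bcl11a, Itgax, Cd24a, Kmo and Kit), and their list summed to 552 UPM in gated Tgfbr2-KO cells and 510 UPM in gated control cells, against 164 and 137 UPM in the others. Most were low in absolute terms. Zbtb46, a transcription factor of conventional dendritic cells, had 48.1 and 70.4 UPM inside the gate, against 8.25 and 13.8 UPM outside, and Flt3, the receptor for their growth factor, had 12.3 and 19.8 UPM inside, against 3.08 and 5.16 UPM outside. Itgax, the CD11c integrin chain and the only one with enough counts for the 2-fold comparison, had 267 and 269 UPM inside, against 116 and 102 UPM outside.

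Type 2 and monocyte-derived genes were raised for 5 of 12 (Irf4, Mgl2, Tnip3, Cd1d1 and Napsa). Mgl2 had 988 and 1341 UPM in the gated Tgfbr2-KO and control cells, against 541 and 376 UPM in the others, and Napsa, an aspartic protease, 379 and 321 UPM, against 115 and 50.1 UPM. Clec10a, a sister lectin of Mgl2, was not raised, at 78.3 and 27.2 UPM inside and 104 and 41.8 UPM outside. Of 15 genes of mature dendritic cells 8 were raised, of 8 type 1 genes only Wdfy4, and of 7 plasmacytoid genes none. Some of the raised mature genes rested on few cells. Cacnb3 gave 2 UMIs in 1 gated Tgfbr2-KO cell and 10 UMIs in 2 gated control cells, and Fscn1 gave 18 UMIs in 2 and 60 UMIs in 3. For Il4i1, 3 cells held 76.6% of the UMIs in the Tgfbr2-KO pool and 94.9% in the control pool. Xcr1, the receptor that marks type 1 dendritic cells, gave 16 UMIs in gated Tgfbr2-KO cells and none in gated control cells. The class II genes that all cells here shared were close to level, with Cd74, the invariant chain, at 24842 and 31269 UPM inside and 23322 and 21809 UPM outside. The less common class II genes H2-DMb2, H2-Oa and H2-Ob were the ones raised.

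Macrophage genes were lower but present. Of 15 macrophage genes with enough counts 7 were at least 2-fold lower in both pools and none higher, with a median log2 ratio of -1.02 beside 0.02 for all genes. C1qa, a chain of complement C1q, had 1887 and 2169 UPM inside the gate, against 4040 and 4757 UPM outside. Mertk, a receptor for the uptake of dead cells, had 5.59 and 9.89 UPM inside, against 55.6 and 95.7 UPM outside. Fcgr1, which encodes the CD64 that the sort required, had 114 and 97.6 UPM inside, against 202 and 117 UPM outside. Single cells ranged widely, from 0 to 21892 UPM of C1qa, C1qb and C1qc together in the Tgfbr2-KO pool (median 3437) and from 0 to 17272 UPM in the control pool (median 5577). Under 3 UMIs of the 3 genes were seen in 14 of 56 gated Tgfbr2-KO cells and in 6 of 72 gated control cells. Genes of dendritic cells and of macrophages were thus both measured in the gate, and the cells are called here by their gate.

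The 12 lowest genes were led by products of resident macrophages. The B cell chemokine Cxcl13 gave 3 UMIs in gated Tgfbr2-KO cells and 1 in gated control cells, against 445 and 849 UPM in the others. Ccl8, another chemokine, had 14.5 and 8.65 UPM inside, against 1905 and 353 UPM outside. Apoe, the lipid carrier, had 536 and 638 UPM inside, against 5340 and 12144 UPM outside, and 46.1% of its UMIs in the gated Tgfbr2-KO cells and 40.5% in the gated control cells came from a single cell. Pf4 (platelet factor 4), Cbr2 (a carbonyl reductase), F13a1 (a coagulation factor XIII chain), Igfbp4 (which binds insulin-like growth factors), Maf (a macrophage transcription factor), Vcam1 and Itga9 (adhesion molecules), Mmp9 (a gelatinase) and Zdhhc14 (a palmitoyltransferase) completed the set. Of 7 genes of CD206+ interstitial macrophages with enough counts, all 7 were lower, with a median of -4.50, while 3 scarcer members of the list of 14 (Cd209d, Cd209b and Timd4) were raised. Of 11 genes of CD206- interstitial macrophages Cd207 and Mmp12 were raised. Of the 10 with enough counts, however, 2 were at least 2-fold lower in both pools and 0 higher, with a median log2 ratio of -0.58. The gate excludes cells by 5 resident macrophage genes, so the difference in the CD206+ list was partly fixed by the rule.

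**Figure D2:**
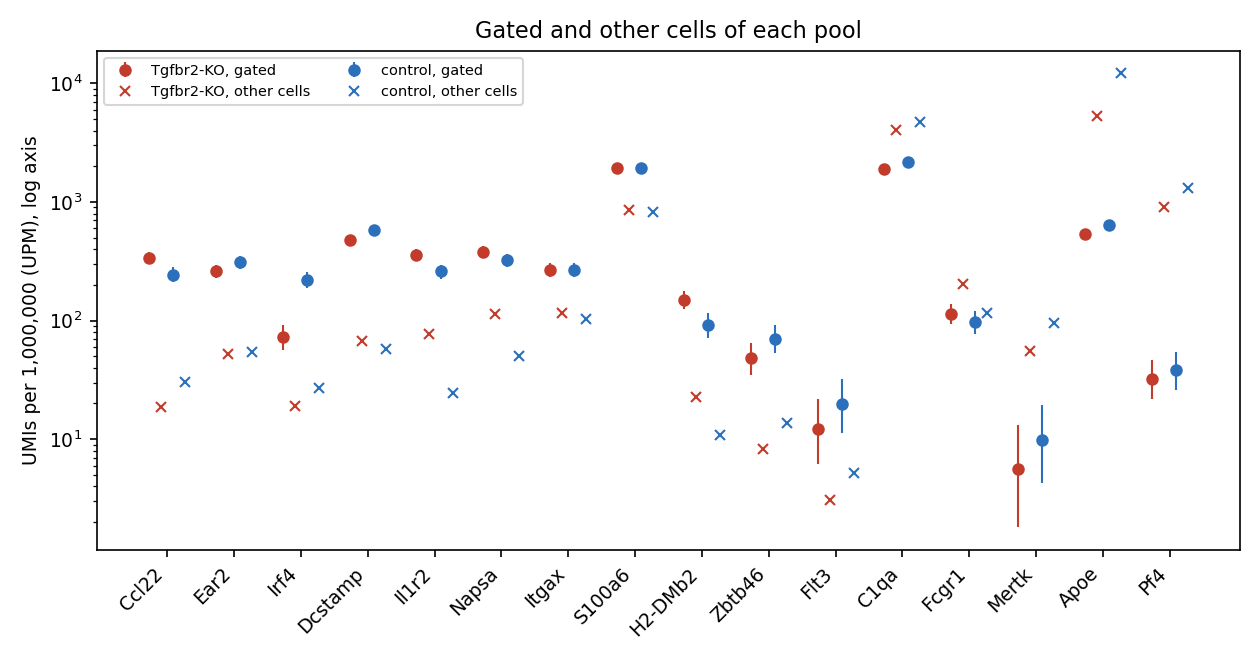
Level in UPM (log axis) of 16 genes in gated cells (dots, with exact 95% Poisson intervals) and in other kept cells (crosses) of the Tgfbr2-KO pool (red) and the control pool (blue). Ccl22, Ear2, Irf4, Dcstamp and Il1r2 were higher in the gated cells of both pools, and Apoe, Pf4 and Mertk were lower.

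Marker lists of other cells a CD11b+ CD64+ sort could hold ranged from near 0 to above the level of the other cells. Of 12 eosinophil, basophil and mast cell genes 11 gave no UMI in gated cells, and the list summed to 3.36 UPM in the Tgfbr2-KO pool and 2.47 UPM in the control pool. The B and plasma cell list, at 62.6 and 74.1 UPM, had 8 of 10 genes at 0, among them Cd79a and Ms4a1. Of 12 T and NK cell genes Nkg7, Gzma, Gzmb and Ncr1 were at 0 while Klrd1 and Il7r were raised, and the list summed to 238 and 273 UPM inside and 88.2 and 89.1 UPM outside. Of 10 neutrophil genes 5 were at 0 and Il1r2 alone was raised, and the list summed to 367 and 273 UPM inside, against 233 and 86.7 UPM outside. Structural lung genes summed to 61.5 and 74.1 UPM inside and 132 and 64.9 UPM outside, with Epcam raised. Alveolar macrophage genes summed to 57.1 and 44.5 UPM inside, against 142 and 158 UPM outside. Classical monocyte genes summed to 2047 UPM in gated Tgfbr2-KO cells and 1289 UPM in gated control cells, against 2821 and 1728 UPM in the others. Patrolling monocyte genes, a list that holds Ear2, summed to 1777 and 2420 UPM inside, against 1469 and 2037 UPM outside, and Ear2 alone of them was raised. Cells with 3 or more UMIs of Ly6c2, Plac8, S100a8 and S100a9 together were 12 of 56 in the gated Tgfbr2-KO cells and 0 of 72 in the gated control cells (exact upper bound 4.99%), against 22.3% and 2.96% of the others. Values without these 12 cells are given below where they change a result.

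Barcodes that carried both tags were gated in 8 of 96 cases (8.33%, 3.67 to 15.8), at a median of 20930.5 UMIs, and after thinning in 1 of 95. From the number of such barcodes, 102 same-tag pairs would be expected among the assigned cells (2.18%). Cells above the 95th percentile of UMIs of their pool were 9 of 56 in the gated Tgfbr2-KO cells and 4 of 72 in the gated control cells. How far pairs of cells contribute to the gate was not tested.

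The 2 transcripts that open the gate marked partly different cells. Cd209a without Ccl17 was seen in 18 gated Tgfbr2-KO cells and 29 gated control cells, Ccl17 without Cd209a in 23 and 20, and both in 15 and 23. Ear2 followed Cd209a: it had 380 and 437 UPM in the Tgfbr2-KO and control cells with Cd209a alone, 512 and 391 UPM in those with both, and 52.4 and 69.6 UPM in those with Ccl17 alone. Mgl2 had 1861 and 1741 UPM in cells with both, against 590 and 581 UPM in cells with Ccl17 alone. Retnla, a secreted product of alternative activation, reached 681 UPM in the Tgfbr2-KO cells with Cd209a alone, but 160 of its 164 UMIs in the gated Tgfbr2-KO cells were from 1 cell.

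Ccr7, Fscn1 and Il4i1 were highest in the cells with Ccl17 alone. Ccr7 had 283 and 782 UPM in the Tgfbr2-KO and control cells with Ccl17 alone, against 50.1 and 56.9 UPM in those with Cd209a alone. Fscn1, an actin bundler of mature dendritic cells, had 42.8 and 246 UPM in cells with Ccl17 alone and no UMI in the other gated cells of either pool. Il4i1, an amino acid oxidase, had 102 and 156 UPM in cells with Ccl17 alone, against 4.18 and 3.56 UPM in those with Cd209a alone. Cells with both transcripts did not share this, with Ccr7 at 89.6 and 45.8 UPM and Il4i1 at 12.8 and 0 UPM. Cd83, a surface protein of mature dendritic cells, was not higher with Ccl17 alone, at 1192 and 2322 UPM, against 1901 and 2315 UPM with Cd209a alone. Cd86, a costimulatory ligand, had 614 and 561 UPM with Ccl17 alone, against 1024 and 939 UPM with Cd209a alone. These levels of Ccr7 rested on few cells: 9 of 56 Tgfbr2-KO cells and 8 of 72 control cells had 3 or more UMIs of Ccr7 and Fscn1 together, against 2.06% and 0.932% of the others, and they held 96.7% and 95.5% of all Ccr7 UMIs in the gate. Fscn1 itself was found in 2 gated Tgfbr2-KO cells, 1 of which held 94.4% of its UMIs, and in 3 gated control cells. These splits use the genes of the gate, so they are descriptions only.

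**Figure D3:**
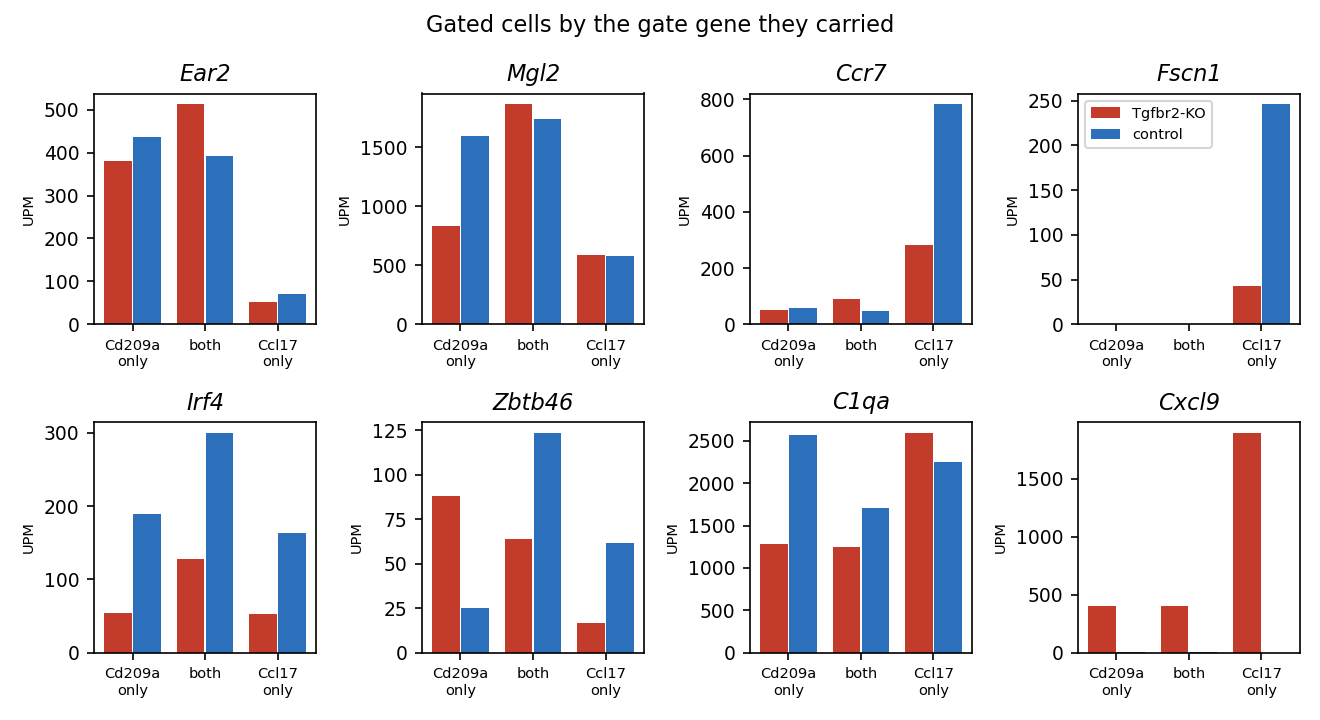
Level in UPM of 8 genes in gated cells with Cd209a alone, both transcripts or Ccl17 alone, for the Tgfbr2-KO pool (red) and the control pool (blue); bars are sums over cells with no replicate. Ear2 was lowest, and Ccr7 and Fscn1 were highest, in the cells with Ccl17 alone in both pools.

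Clustering of all 4570 cells on 2000 variable genes gave 14 clusters, which bear numbers here. Cluster 10, led by Cd209a, Ccl17, Ear2, Flrt3, Asgr2, Dcstamp, Irf4 and Ccl22, held 23 of 56 gated Tgfbr2-KO cells (41.1%) and 46 of 72 gated control cells (63.9%), and 69 of its 185 cells were gated. Cluster 5, led by Saa3, Ly6i, Upp1 and Nos2, held 12 gated Tgfbr2-KO cells and 3 gated control cells. Cluster 6, led by Fn1 and Gpnmb, held 5 and 11, cluster 11, led by cell cycle genes, 5 and 4, and cluster 1, led by Dnase1l3 and Nr1h3, 5 and 1. Cells with Ccl17 alone were spread: 4 of 23 Tgfbr2-KO cells and 3 of 20 control cells of this kind were in cluster 10, against 8 of 18 and 27 of 29 of those with Cd209a alone. The gates of the 2 pools thus drew on the clusters in different proportions, and every comparison of genotypes inside the gate mixes this make-up with levels inside a cluster.

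**Figure D4:**
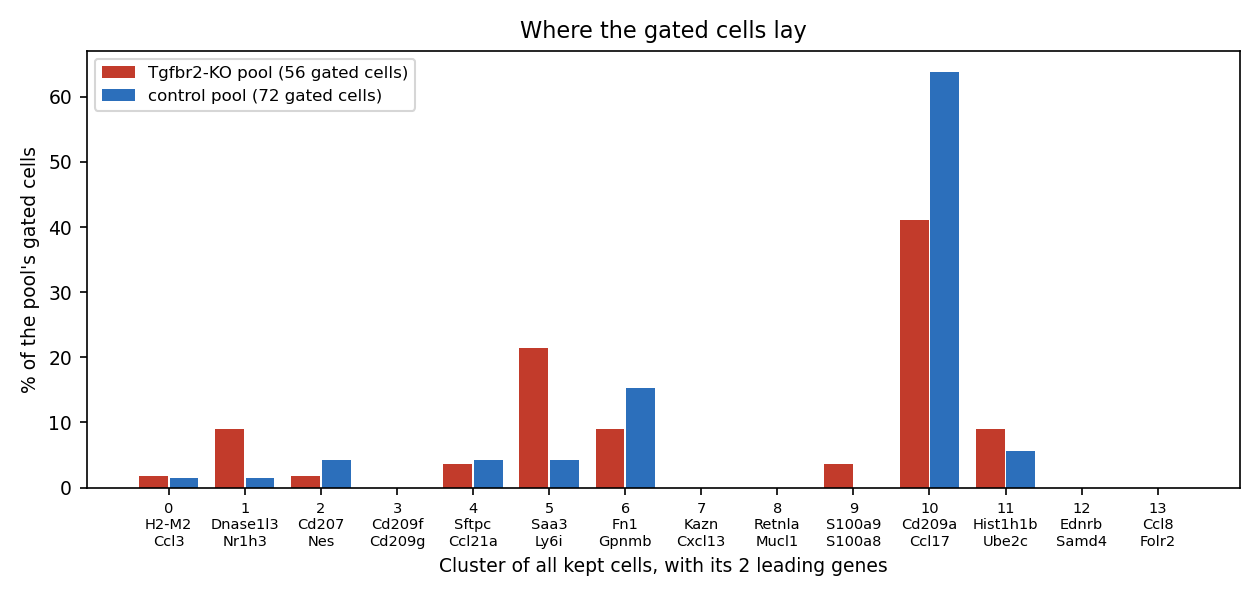
Share of each pool's gated cells (percent) in each of 14 clusters of all kept cells, with the 2 leading genes under each number, for the Tgfbr2-KO pool (red) and the control pool (blue). Cluster 10 held 41.1% of the gated Tgfbr2-KO cells and 63.9% of the gated control cells, and cluster 5 held 21.4% and 4.17%.

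Between the genotypes, gated Tgfbr2-KO cells carried more of the interferon genes and of MHC class I than gated control cells, and less Irf4 and fewer transcripts of several TGF-beta targets. Of 1686 genes with at least 100 UMIs in the gate and 100 UPM in 1 pool, 272 (16.1%) were at least 1.5-fold higher in the Tgfbr2-KO pool and 162 (9.61%) at least 1.5-fold lower. The trimmed-mean centre of all genes lay 0.11 (log2) above equality, and once that shift was taken out the counts were 190 higher and 225 lower, so the balance of directions depends on the scaling. Counts of the lists below are given for that scaling too where they change. In the other kept cells, 204 of 1741 genes (11.7%) were higher and 164 (9.42%) lower. Of 1501 genes included in both, 125 were higher in both settings, 74 lower in both, and none had opposite calls.

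The targeted gene was counted first. Tgfbr2 stood at 122 UPM (100 to 147) in gated Tgfbr2-KO cells and 112 UPM (90.5 to 138) in gated control cells, against 197 and 220 UPM in the others. Counts of 3' ends do not tell whether the deleted part of the gene is missing, so this value does not check the labels. Lyz2, the gene whose locus carries Cre, had 3025 UPM in gated Tgfbr2-KO cells and 6081 UPM in gated control cells, 2.01-fold lower, and 2.26-fold lower in the other Tgfbr2-KO cells. Only the Tgfbr2-KO pool carries Cre at this locus, so for Lyz2 the Cre allele and the loss of Tgfbr2 cannot be told apart.

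Of 9 interferon-induced genes with enough counts 8 were at least 1.5-fold higher in the gated Tgfbr2-KO cells, with a median log2 ratio of 3.28 beside 0.08 for all genes, and all 14 with enough counts were higher in the other Tgfbr2-KO cells. Cxcl9, Ly6a, Iigp1, Ly6i and Zbp1 reached 100 UPM in the Tgfbr2-KO pool only, so the filter itself favours this direction. Without that filter, all 26 listed genes summed to 4659 and 829 UPM in gated Tgfbr2-KO and control cells. In the other cells they summed to 6564 and 1086 UPM. Cxcl9, a chemokine for activated T cells, had 1104 UPM in gated Tgfbr2-KO cells and 4.94 UPM in gated control cells, 223-fold apart (87.0 to 821), with UMIs in 26 of 56 and 4 of 72 cells. After thinning it was found in 39.3% of gated Tgfbr2-KO cells and in 0 of 72 gated control cells (exact upper bound 4.99%), and in 32.9% and 2.52% of the others. Ly6a (Sca-1) gave 389 UMIs in gated Tgfbr2-KO cells and 3 in gated control cells, Iigp1, an immunity-related GTPase, 111 and 1, and Ly6i 109 and 2. Zbp1, a nucleic acid sensor, had 120 and 12.4 UPM. Cxcl10 was the exception among the 9, at 214 and 166 UPM.

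MHC class I and antigen processing went along. Of 10 such genes 9 were higher in the gated Tgfbr2-KO cells, with a median log2 ratio of 1.01, and 7 after trimmed-mean scaling, when B2m and H2-K1 no longer reached 1.5-fold. Psmb9, a subunit of the immunoproteasome, had 298 and 74.1 UPM, Tap1, the peptide transporter, 138 and 35.8 UPM, and B2m 2906 and 1887 UPM. H2-D1, at 2155 and 2014 UPM, was not among the 9. Enzymes of glycolysis were higher for 9 of 11, and for 6 after that scaling, with a median of 0.76, Gapdh at 1111 and 562 UPM and Pkm at 339 and 182 UPM. Among transcription factors Irf8, which serves type 1 dendritic cells and monocytes, had 188 and 42.0 UPM.

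Plac8, which is high in classical monocytes, gave 321 UMIs in 14 gated Tgfbr2-KO cells and 1 UMI in the gated control cells, a ratio of 291 (51.8 to 11513). Ly6c2 gave 85 UMIs in 9 gated Tgfbr2-KO cells, 55.3% of them in 1 cell, and none in gated control cells. With the control count set to 3 the ratio is 25.7, a value that rests on that setting and is not a lower bound. Lyz1 had 392 and 38.3 UPM, with 83.9% of its UMIs in the control pool in 1 cell, and its log2 ratio was 3.35, or 5.63 without the highest cell of each pool. Ms4a4c had 227 and 17.3 UPM, and Thbs1 (thrombospondin) 136 and 14.8 UPM. Ifitm1 had 148 and 14.8 UPM, with 62.9% of its UMIs in the Tgfbr2-KO pool in 1 cell. Without the 12 cells that carried Ly6c2, Plac8, S100a8 or S100a9 at 3 or more UMIs together, Ifitm1 turned to a log2 ratio of -0.12 (9 and 12 UMIs), Ms4a4c stood at 1.95 in place of 3.71, and Zbp1 at 2.29 in place of 3.28. Cxcl9 was then at 7.33 and Irf4 at -1.18, and 200 genes were higher and 94 lower. Plac8 and Ly6c2 chose the cells left out, so they are not read there. C3, the central complement protein, had 211 and 12.4 UPM, and Ass1, an enzyme of arginine supply, 252 and 18.5 UPM.

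**Figure D5:**
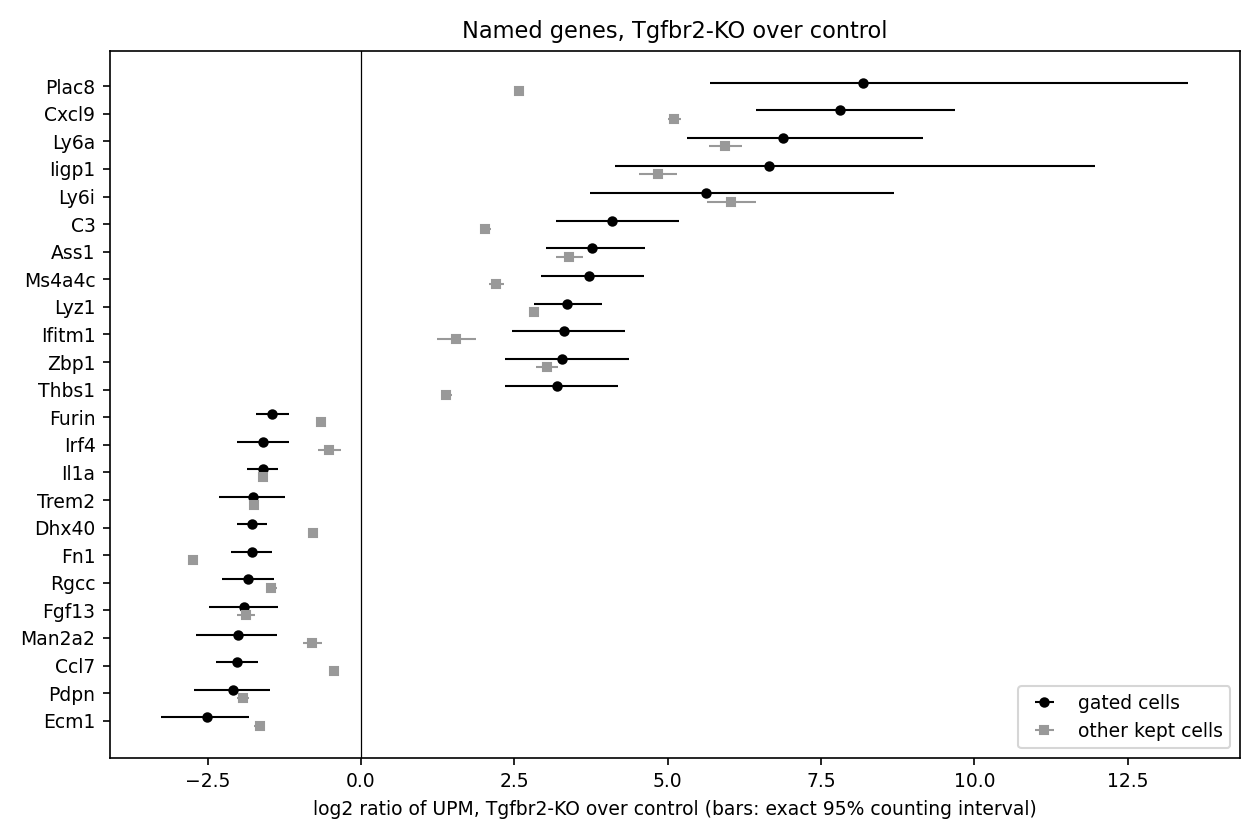
log2 ratio of UPM, Tgfbr2-KO over control, of the 12 highest and 12 lowest genes by rule, in gated cells (black dots) and other kept cells (grey squares), with exact 95% counting intervals. Gated values ran from 8.18 for Plac8, which rests on 1 control UMI, to -2.51 for Ecm1, and every gene had the same sign in the other cells.

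Irf4 was lower in the gated Tgfbr2-KO cells, at 72.7 UPM (56.1 to 92.7), against 220 UPM (189 to 255) in gated control cells, 3.02-fold apart (2.26 to 4.08). It was found in 28 of 56 and 38 of 72 cells, at most 8 UMIs in a Tgfbr2-KO cell and 41 in a control cell. The direction was the same in all 3 kinds of gated cell: 54.3 and 188 UPM with Cd209a alone, 128 and 300 UPM with both, and 52.4 and 164 UPM with Ccl17 alone. In the other cells it was 1.43-fold lower. Of 7 genes of type 2 and monocyte-derived dendritic cells with enough counts Irf4, Tnip3 and Clec4a2 were lower and none higher, while Mgl2, at 988 and 1341 UPM, and Klf4, at 364 and 397 UPM, stayed within 1.5-fold.

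Of 12 TGF-beta targets with enough counts 6 were lower in gated Tgfbr2-KO cells (Pmepa1, Skil, Rgcc, Cd9, Rnf180 and Id2) and 2 higher (Tgfbi and Thbs1), with a median log2 ratio of -0.58. After trimmed-mean scaling 7 were lower and 1, Thbs1, higher. In the other cells 10 of 16 were lower and 1 higher. This list, which holds Rnf180, was chosen with earlier results of these data known, so its counts are descriptions and no independent result. All 22 listed genes, unfiltered, summed to 3229 and 4713 UPM in gated Tgfbr2-KO and control cells, against 2787 and 4633 UPM in the others. Pmepa1, an inhibitor of the pathway that TGF-beta itself induces, had 89.5 and 195 UPM in the gated Tgfbr2-KO and control cells, and Skil, a repressor of SMAD factors, 420 and 651 UPM. Rgcc, a cell cycle regulator, had 71.6 and 256 UPM. Furin, the protease that cuts the TGF-beta precursor, had 181 and 493 UPM, with UMIs in 49 of 56 and 60 of 72 cells, and Tgfb1 itself 232 and 348 UPM.

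The other genes lowest in gated Tgfbr2-KO cells were mixed in role. Il1a, an alarm cytokine, had 204 and 618 UPM, and of 12 inflammatory cytokine genes and regulators 5 were lower and none higher (6 lower after trimmed-mean scaling), with Il1b level at 4397 and 4916 UPM. Ccl7, a ligand of CCR2, had 106 and 430 UPM, but its direction turned with no limit on macrophage genes, to a log2 ratio of 0.62, and after thinning the gate gave -0.25. Trem2, a lipid receptor, had 45.9 and 156 UPM. With the thinned gate its log2 ratio was -0.34 in place of -1.76, and that of Il1a was -0.82 in place of -1.60. Ecm1 (an extracellular matrix protein), Pdpn (podoplanin), Fgf13, Dhx40 (a helicase) and Man2a2 (a mannosidase) were 3.42-fold to 5.68-fold lower, although 54.7% of the Man2a2 UMIs in the control pool came from 1 cell. Fn1, fibronectin, had 112 and 383 UPM, but only in cells with Ccl17 alone was it lower, at 114 and 1188 UPM, and with Cd209a alone it stood at 71.0 and 7.11 UPM. Dissociation stress genes, which respond to tissue digestion, were lower for 4 of 14, and for 8 after trimmed-mean scaling, and higher for none.

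The chemokines that help define the cells went separate ways. Ccl17 stood at 946 and 916 UPM in gated Tgfbr2-KO and control cells, but it is a gene of the gate, so these levels describe the choice of cells. Ccl22 was slightly higher in gated Tgfbr2-KO cells, at 336 and 245 UPM. For Ccl22, 3 cells held 55.3% of the UMIs in the Tgfbr2-KO pool and 31.3% in the control pool. Ccl5, a chemokine for T cells and monocytes, had 1147 and 433 UPM, but 74.0% of its UMIs in the Tgfbr2-KO pool and 81.7% in the control pool came from 1 cell each. Ccl2 had 779 and 1416 UPM and Cxcl2, a neutrophil chemokine, 2822 and 5196 UPM.

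Within cluster 10 alone, 23 gated Tgfbr2-KO cells and 46 gated control cells, the picture was narrower. Of 21 named genes that had differed, 11 kept their direction at 1.5-fold or more. Ly6a, Iigp1 and Plac8 gave no UMI in these Tgfbr2-KO cells and 2, 1 and 1 in the control cells. The clustering used these genes as well, so cells rich in them fall into other clusters by construction, and their absence here is no independent result. Irf4 remained lower, at 149 and 283 UPM, 1.90-fold apart (1.33 to 2.78), as did Furin at 309 and 622 UPM and Ccl7 at 134 and 548 UPM. Lyz2, whose locus carries Cre in the Tgfbr2-KO pool only, was also lower, at 2126 and 5052 UPM. Rgcc was level at 141 and 148 UPM, Ecm1 at 37.2 and 41.1 UPM and Trem2 at 59.6 and 63.6 UPM. Ear2, at 841 and 425 UPM, and Ccl22, at 532 and 242 UPM, were higher in the Tgfbr2-KO cells of this cluster, while Cd209a, a gene of the gate, had 677 and 1248 UPM. Thbs1 gave 82 UMIs and 1 UMI, and Lyz1 62 and 3. Fn1 went against its direction in the whole gate, with 52 UMIs and 2.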

How the data were processed

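Lung cells of a Tgfbr2-KO pool and a control pool, told apart by antibody tags, were measured in 1 gene expression library and 1 tag library. The deposited matrix holds raw counts of UMIs for 22597 genes and 3 tags in 1172636 barcodes, made with Cell Ranger 8.0.0, per the file headers, on GRCm38, per the submitters' processing notes, which also name Seurat 5.1.0. The authors' deposited assignment table gives the tag of 4887 called cells, the assignment probability as a fraction, and log10 tag counts, which match log10(count + 1) of the matrix to within 8.9e-16. How reads shared by near-identical gene copies (Cd209, Ear, Ly6 and lysozyme families) were counted is not stated, so their levels are uncertain.

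Cells assigned to B0303 or B0301 with at least 1000 gene UMIs, 500 genes and at most 10% mitochondrial UMIs were kept, 4570 of 4671. UMIs were summed per pool inside and outside the gate. Poisson intervals of levels, conditional binomial intervals of ratios and Clopper-Pearson intervals of shares are exact at 95% and cover counting error only. A count of 0 was set to 3 counts in ratios. Genes were called at 2-fold in both pools for gated against other cells, and at 1.5-fold for Tgfbr2-KO against control. Named genes are the 12 farthest in each direction among called genes, without gate, mitochondrial, ribosomal, Y-linked or unnamed genes or Xist, and between genotypes with UMIs in at least 10 cells of the higher pool. Cells were clustered with Scanpy 1.11.5 and leidenalg 0.10.2 on 30 components and 15 neighbours at resolution 0.8. No doublet caller was run, and barcodes with both tags were left out. Members and the 38 gene lists were chosen with earlier results of these data known. Computation used Python 3.11.15, numpy 2.4.6, scipy 1.17.1 and pandas 2.3.3, and scripts were tested on simulated data. Alternatives covered the gate, depth, cell filters, scaling, free RNA, gene filters, fold thresholds and left-out cells.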

Additional observations from a re-analysis of the deposited data

Results flagged for a closer look

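Ccr7 differed in opposite directions inside and outside the gate. Its log2 ratio, Tgfbr2-KO over control, was -0.68 in gated cells, at 170 and 272 UPM, and 0.94 in the other kept cells, at 21.3 and 11.1 UPM. The difference between these ratios was not tested, and 9 gated Tgfbr2-KO cells and 8 gated control cells held nearly all of the gated UMIs.

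Cd209a, a gene of the gate, had a log2 ratio of -1.65 in gated cells, at 283 and 887 UPM, while in the other cells it was 1.79-fold higher in the Tgfbr2-KO pool, at 9.82 and 5.49 UPM. This difference was not tested either, and the gate itself sorts cells by Cd209a.

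Barcodes assigned to both tags, which no comparison uses, met the gate in 8 of 96 cases (8.33%), against 2.09% of Tgfbr2-KO cells and 3.80% of control cells. After thinning to 3000 UMIs 1 of 95 met it.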

How the results depend on the processing

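Named values of 29 genes were recomputed under alternatives to the gate, cells and values: of 600 values 484 stayed within the counting interval of the main value, 109 moved outside it and 7 values of called genes changed sign. Among 537 values of called genes, 515 kept their direction at 1.5-fold or more. Both counts include repeats that could not differ from the main value. A macrophage limit of 4 UMIs and no cell filter left the same 56 and 72 gated cells. The filter of 20 UMIs and the higher fold thresholds change which genes are counted or called and not the ratio of a gene. The counts of unchanged values therefore overstate how stable the ratios were. Ccl7 stood at a log2 ratio of 0.62 with no macrophage limit, Ifitm1 at -0.15 without cells carrying monocyte genes and -0.12 without those carrying Ly6c2, Plac8, S100a8 or S100a9, Pdpn at 0.093 and Fn1 at 5.56 in cluster 10, and Fn1 at 2.66 and Ccr7 at 0.28 in gated cells with 3 or more Cd209a UMIs. The causes were not tested. The share of gated cells in the Tgfbr2-KO pool was 2.95% at 2 or more UMIs, 1.496% at 5 or more, 3.18% with no macrophage limit and 1.24% after thinning, when the control pool gave 2.48%. It was below the control share in each of these. Genes higher and lower inside the gate numbered 39 and 24 with no macrophage limit, 181 and 233 with a filter of 20 UMIs and 20 UPM, and 23 and 43 at 3-fold, and 92 were higher in cluster 10. Genes higher and lower in Tgfbr2-KO cells numbered 160 and 78 after thinning, 1225 and 635 with the 20 UMI filter, 88 and 50 at 2-fold, and 87 and 41 in cluster 10. Lower genes numbered 106 with no macrophage limit, 97 by the mean over cells, 94 without cells carrying monocyte genes by either set and 85 without cells above the 95th percentile of UMIs. The cluster 10, Ly6c2 to S100a9, Ccr7 or Fscn1, deep-cell and highest-cell alternatives were chosen after seeing the data. No paired analysis was possible because each genotype is 1 pool, and no replicate could be left out.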

Other observations

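Further lectins of the Cd209 family were detected at low levels. Cd209d had 24.6 UPM in gated Tgfbr2-KO cells and 43.3 UPM in gated control cells, against 14.0 and 3.10 UPM in the others, and Cd209c had 8.95 and 24.7 UPM, against 0.469 and 0.452 UPM. Timd4, a receptor for phosphatidylserine and not a member of that family, gave 8 UMIs in 3 gated Tgfbr2-KO cells and 52 UMIs in 9 gated control cells. Members of the Cd209 family are close in sequence, and how shared reads were counted is not known here.

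Klrd1, an NK cell receptor chain also known in dendritic cells, had 96.2 and 71.7 UPM in gated Tgfbr2-KO and control cells, against 6.80 and 1.94 UPM in the others. Epcam, an adhesion molecule of epithelia also known in some dendritic cells, had 33.6 and 17.3 UPM, against 1.88 and 0.323 UPM. Bhlhe40, a transcription factor, had 373 and 535 UPM inside the gate, 3.92-fold and 4.20-fold above the other Tgfbr2-KO and control cells, and Cish, a STAT5 target, had 96.2 and 82.8 UPM, 3.75-fold and 3.07-fold above them.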
